A study of Mus musculus with 10 samples.

Results

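Wildtype alveolar type 2 (AT2) cells taken from lungs in which other AT2 cells had been mutant for 4 days were compared with wildtype AT2 cells from Confetti lungs, in which no cells were made mutant. The comparison used 4 of the 10 libraries of the series, 2 of the group Red2Kras 4d YFP and 1 each of Confetti RFP and Confetti YFP. Barcodes were kept when they held at least 1000 genes, at most 50000 UMIs (unique molecular identifiers, 1 per captured RNA molecule), at most 15% mitochondrial UMIs and no UMI of Ptprc, the pan-leukocyte gene. Replicate 1 of Red2Kras 4d YFP kept 1826 cells, replicate 2 kept 2989, Confetti YFP 4121 and Confetti RFP 3914, which is 12850 of the 30599 cells that passed the same filters in all libraries. UMIs were summed over the cells of each library, and 14342 autosomal genes with enough counts were tested.

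All 4 libraries came from 8-week-old adult mice on a mixed C57BL/6Brd-Tyrc-Brd background with Sftpc-CreERT2, a tamoxifen-inducible Cre recombinase driven by the surfactant protein C promoter, which is active in AT2 cells. All mice were given 3 tamoxifen doses of 0.2 mg per gram body weight, and EpCAM+ epithelial cells were sorted from the distal lung by colour. In Sftpc-CreERT2; R26R-Confetti mice both colours mark wildtype cells. In Sftpc-CreERT2; Red2Kras mice, RFP marks mutant cells and YFP marks wildtype cells of the same lungs, here at 4 days after induction. The labels give Confetti no time point and the study's methods place it at 2 weeks. The same methods state that the 4-day Red2Kras mice were taken before tamoxifen washout was complete. The groups therefore differ in mouse line and in time, and tamoxifen washout goes with time. By the methods the libraries were made across 2 days, and no label assigns a library to a day, so day and group cannot be told apart. Lungs of 2 or more mice were pooled per sample, and no label states that replicates came from separate mice, or that the Confetti libraries did. The methods list a single Confetti sample and 2 Red2Kras samples per time point. On that count the Confetti libraries are 2 colours of the same pool and not independent controls. The p-values measure the spread between these samples, which comes from the Red2Kras pairs, and the sexes given below show that the 2 replicates of 4d YFP were not the same pool of mice.

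AT2 cells make surfactant and are the stem cells of the alveolus. After injury they can enter a primed state with acute-phase genes such as Lcn2 and Lrg1, and then a transitional Krt8-high state on the way to flat alveolar type 1 (AT1) cells. Interferons reach such cells from their surroundings and switch on antiviral genes and the MHC class I pathway, many of which carry the interferon-stimulated response element (ISRE) in their promoters.

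The libraries differed in ways that no group label carries. By sex-linked transcripts, the Confetti libraries were female, replicate 1 was 83.7% female (exact 95% interval 81.7 to 85.5), and replicate 2 held 1113 male and 2 female cells. The median UMI count of a kept cell was 4000.5 in Confetti RFP, 3251 in Confetti YFP, 5919 in replicate 1 and 6160 in replicate 2. Markers of other cell types also differed between the replicates: the summed level of 8 endothelial genes was 670 CPM (counts scaled to the library's total) in replicate 1 and 58.1 in replicate 2, against 229 and 351 in Confetti, and the 8 mesenchymal genes gave 327, 30.7, 142 and 162 in the same order. The 12 macrophage genes summed to 162 in replicate 1 and 320 in replicate 2, against 207 and 210 in Confetti. Airway secretory genes, mostly Scgb1a1, summed to 10354 and 6696 against 6292 and 11081, so the sums of the groups overlapped. Their median log2 difference from Confetti was -1.60 in replicate 1 and -1.37 in replicate 2, with 5 of 7 genes below both Confetti libraries in both (18.1% of all genes tested). Erythroid genes, mostly haemoglobin, were at 908 CPM in replicate 1 and at 0.221 in replicate 2, against 83.4 and 420 in Confetti. Pairs of these libraries shared at most 5 cell barcodes. In sums over cells, fewer cells of a type and less RNA per cell cannot be told apart.

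No gene passed the threshold between 4d YFP and Confetti (edgeR quasi-likelihood test, 0 of 14342 genes at an adjusted p under 0.05, 0% called). The smallest adjusted p was 0.391, 167 genes (1.16%) had an unadjusted p under 0.05, and DESeq2 called 4 genes, all lower in 4d YFP. The replicates differed from each other more than the Confetti libraries did: the median absolute log2 difference over all genes tested was 0.45 between replicates 1 and 2, 0.20 between Confetti YFP and RFP, 0.21 between replicate 1 and the Confetti mean and 0.38 between replicate 2 and the Confetti mean. Of 5399 genes at 20 CPM or more in at least 1 of the 4 libraries, 504 were at least 2-fold apart between the replicates and 34 between the Confetti libraries. The Confetti values compare 2 colours of what the methods list as a single sample, while the replicates are different pools. They are not like measures of spread. The results below are therefore given library by library, as TMM-scaled CPM, and describe which genes lay outside both Confetti libraries in both replicates or in 1 of them.

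A total of 5 genes were at least 2-fold higher in both 4d YFP libraries than in both Confetti libraries (5 of 5399, 0.0926%), and Iigp1, Ifitm3, H2-Q6 and H2-Q7 were among them. Iigp1, an interferon-induced GTPase that attacks the vacuoles of intracellular parasites, was at 2.20 and 3.80 CPM in Confetti RFP and YFP and at 18.3 and 24.1 in replicates 1 and 2. Both replicates lay above both Confetti libraries by at least 4.81-fold. Ifitm3 (ENSMUSG00000025492, chr7:141009586-141010770, GRCm38), a membrane protein that blocks virus entry, was at 99.5 and 133 in Confetti and at 268 and 298 in 4d YFP. Its smallest fold between any pair was 2.02, and its fitted log2 difference was 1.30 ± 0.39 (SE, adjusted p = 1). H2-Q7 (chr17:35439155-35443773), a non-classical MHC class I molecule, was at 23.7 and 22.4 in Confetti, 57.8 in replicate 1 and 219 in replicate 2. Its fitted log2 difference was 2.59 ± 0.78 (SE, adjusted p = 1). H2-Q6 (chr17:35424850-35430055) was at 13.2 and 15.5 against 39.5 and 76.2, but H2-Q6 and H2-Q7 are neighbouring genes of near-identical sequence, and reads may be split or lost between them. The fifth gene, Gm8797, is a predicted gene of unknown role at chr3:5750806-5751295. It was at 5.83 and 4.65 in Confetti and at 63.3 and 33.7 in 4d YFP, and in replicate 1 it was at 85.6 in female cells and at 6.22 in male cells. With only the female cells of replicate 1, Ifitm3 was no longer 2-fold higher in every pair. The same held among barcodes free of 9 marker genes of other cell types, described below. Among those barcodes Iigp1 in replicate 1 was at 1.63, against 0.261 and 0.142 in Confetti.

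**Figure D1:**
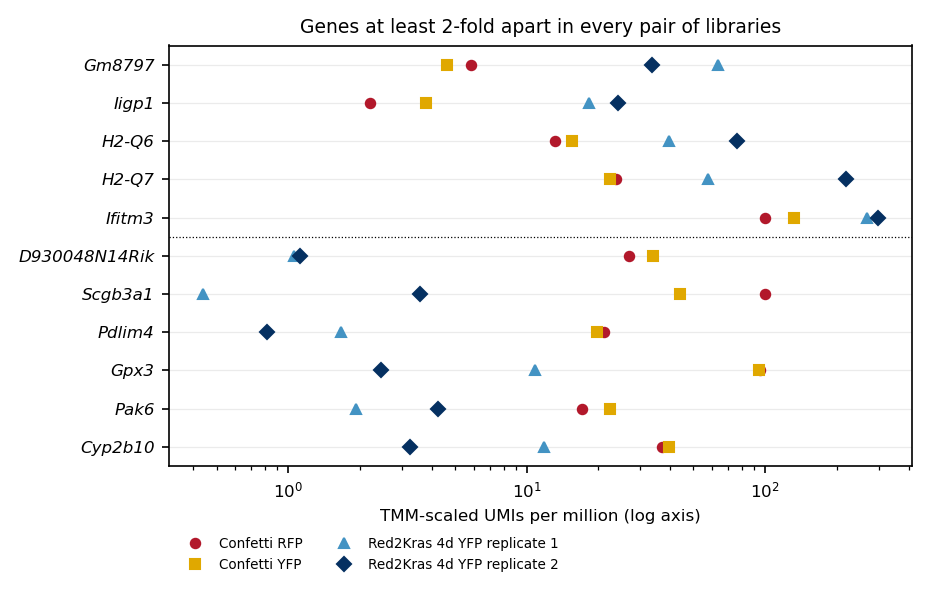
Level of the 5 genes at least 2-fold higher (above the dotted line) and the 6 genes at least 2-fold lower (below it) in both Red2Kras 4d YFP libraries than in both Confetti libraries, in TMM-scaled CPM on a log axis, 1 point per library. H2-Q7 stands at 57.8 and 219 against 23.7 and 22.4, and Gpx3 at 10.9 and 2.44 against 94.8 and 94.0.

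The interferon-induced genes as a group lay above Confetti in both replicates. Of the 22 genes of the list, 20 were above both Confetti libraries in both 4d YFP libraries (13.8% of all genes tested were), none was below both in both, and 8 were at least 2-fold above (0.377% of all genes tested). The count of 8 was 2 with at least 1500 genes per barcode, 4 with only the female cells of replicate 1, 5 without scaling factors and 15 without replicate 1. The median log2 difference from the Confetti mean was 0.99 in replicate 1 and 1.68 in replicate 2, against 0.0079 and -0.037 over all genes tested. In edgeR, 13 of the 22 had an unadjusted p under 0.05 with 4d YFP higher (0.837% of all genes tested), and none passed after adjustment.

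The list is made of known interferon targets, so the ISRE in their promoters is background to the list and not a result of these libraries. RefSeq promoter windows (GRCm38.p6, 250 bases before to 50 after the gene start) were found for 18 of the 22 interferon genes, and 14 of the 18 (77.8%) held the ISRE letters, GAAA repeated after any 2 bases, on either strand. Ifit2, Irf7, Irf1 and Oasl2 did not hold them in this window, and Iigp1, Usp18 and Zbp1 had no entry. Of all 32851 windows of this length, 3.44% held them, and of the 10773 tested genes with a window, 3.79%. Of the 14 MHC class I genes, 12 had a window and 3 held the letters: B2m, H2-T23 and Psme1. A match describes letters in a window and shows no binding. The stretches around the match are printed for 4 genes described here, 5′ to 3′ on the gene's own strand and ending before the gene start, with the ISRE letters in capitals. Runs with overlapping matches are longer than 10 bases.
Isg15 (chr4:156200827-156200956, minus strand): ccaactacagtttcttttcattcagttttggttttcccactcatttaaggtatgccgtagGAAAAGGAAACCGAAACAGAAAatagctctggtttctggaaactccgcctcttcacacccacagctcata
Bst2 (chr8:71537533-71537662, minus strand): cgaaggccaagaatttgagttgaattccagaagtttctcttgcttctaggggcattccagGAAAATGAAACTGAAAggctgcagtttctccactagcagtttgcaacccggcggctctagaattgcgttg
Gbp2 (chr3:142620544-142620662, plus strand): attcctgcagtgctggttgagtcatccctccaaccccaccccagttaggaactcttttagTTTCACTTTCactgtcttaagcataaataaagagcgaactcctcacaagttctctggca
B2m (chr2:122147488-122147617, plus strand): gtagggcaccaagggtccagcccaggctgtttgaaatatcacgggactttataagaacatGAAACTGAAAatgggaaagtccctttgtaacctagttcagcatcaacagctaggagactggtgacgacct

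In Isg15 3 matches overlap and begin 78 bases before the start, in Bst2 2 matches overlap from 130 bases before it, and in Gbp2 the letters stand on the opposite strand from 59 bases before it.

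Among the antiviral effectors, Bst2 (tetherin, which holds budding virus at the cell surface) was at 59.9 and 54.6 in Confetti, 88.5 in replicate 1 and 293 in replicate 2, with a fitted log2 difference of 1.74 ± 0.60 (SE, adjusted p = 1). Isg15, a ubiquitin-like modifier, was at 13.9 and 18.2 against 24.4 and 102. Both genes lay just outside Confetti in replicate 1 and far above it in replicate 2. Zbp1, a sensor of viral nucleic acid, was at 1.51 and 0.982 in Confetti, 1.58 in replicate 1 and 24.2 in replicate 2, so replicate 1 lay close to Confetti. Among the interferon-induced GTPases, Gbp2 was at 1.94 and 2.88 against 6.93 and 12.1, Irgm1 at 9.16 and 8.12 against 14.7 and 22.2, and Igtp at 3.51 and 3.86 against 4.74 and 11.9. Gbp3 was at 0.376 and 0.262 against 2.72 and 2.62, and Gbp7 at 2.13 and 2.95 against 8.95 and 4.94, so replicate 1 was the highest library in both genes. Of the transcription factors of the response, Irf7 was at 5.27 and 6.48 against 7.64 and 11.4. Irf1 and Ifit2 were the exceptions: Ifit2 had at most 6 UMIs in any of the 4 libraries, and Irf1 was at 62.8 and 67.5 in Confetti, 84.5 in replicate 1 and 48.9 in replicate 2. The genes of these lists beyond the most abundant members, Isg15 and Gbp2 among them, were chosen after their values were seen.

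In replicate 1 the interferon list was nearer to Confetti among barcodes free of 9 marker genes of other cell types. The 9 include Ptprc and hold no airway secretory, erythroid or mesothelial gene. When every barcode with a UMI of Pecam1, Cdh5, Col1a1, Dcn, Foxj1, Tmem212, Tyrobp or C1qb was removed as well, the list's median log2 difference was 0.44 in replicate 1 and 2.41 in replicate 2, and 15 of the 22 genes were above both Confetti libraries in both (15.9% of all genes tested in that set). Ifitm3 was then at 31.4 in replicate 1 against 28.5 and 29.7 in Confetti, while replicate 2 was at 254. Bst2 was at 61.3 against 53.8 and 45.6, and Isg15 at 12.5 against 11.2 and 13.7. Iigp1 was at 1.63 against 0.261 and 0.142, and at 24.2 in replicate 2. The list median was also lower among barcodes with at least 1500 genes, at 0.53 and 1.20, with 14 of 22 genes above (15.2% of all genes tested in that set).

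The MHC class I pathway was higher in both replicates by a smaller amount. Of 14 genes, 10 were above both Confetti libraries in both 4d YFP libraries (13.8% of all genes tested), in the stricter set of barcodes also 10, with a median log2 difference of 0.38 in replicate 1 and 1.35 in replicate 2, and 7 had an unadjusted p under 0.05 in edgeR with 4d YFP higher (0.837% of all genes tested). B2m, the invariant light chain of every class I molecule, was at 252 and 212 in Confetti, 366 in replicate 1 and 871 in replicate 2, and at 234, 189, 310 and 843 in the stricter set. Its fitted log2 difference was 1.42 ± 0.53 (SE, adjusted p = 1). The classical heavy chain H2-K1 was at 812 and 739 against 997 and 2072, and H2-D1 at 908 and 691 against 1036 and 1916. H2-Q7 was at 45.5 and 218 against 20.6 and 19.3 in the stricter set, so both replicates lay above Confetti in that set too. Among barcodes with at least 1500 genes H2-Q7, H2-Q6 and Ifitm3 were no longer 2-fold higher in every pair. Of the machinery that makes and loads peptides, Tap1, a subunit of the peptide transporter, was at 10.9 and 8.71 against 13.3 and 36.9, and the immunoproteasome subunit Psmb8 at 84.6 and 72.1 against 94.2 and 284. Psme1, Psme2, Psmb10 and Tapbp were within the Confetti range in replicate 1 and above it in replicate 2.
Of 7 MHC class II genes, which AT2 cells carry at high level, 4 were above both Confetti libraries in both replicates (13.8% of all genes tested) and none below, with medians of 0.26 and 0.27. H2-Ab1, a class II chain, was at 933 and 782 against 1022 and 1029. Cd74, the invariant chain, was at 6843 and 5738 in Confetti and at 6783 and 7350 in 4d YFP.

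**Figure D2:**
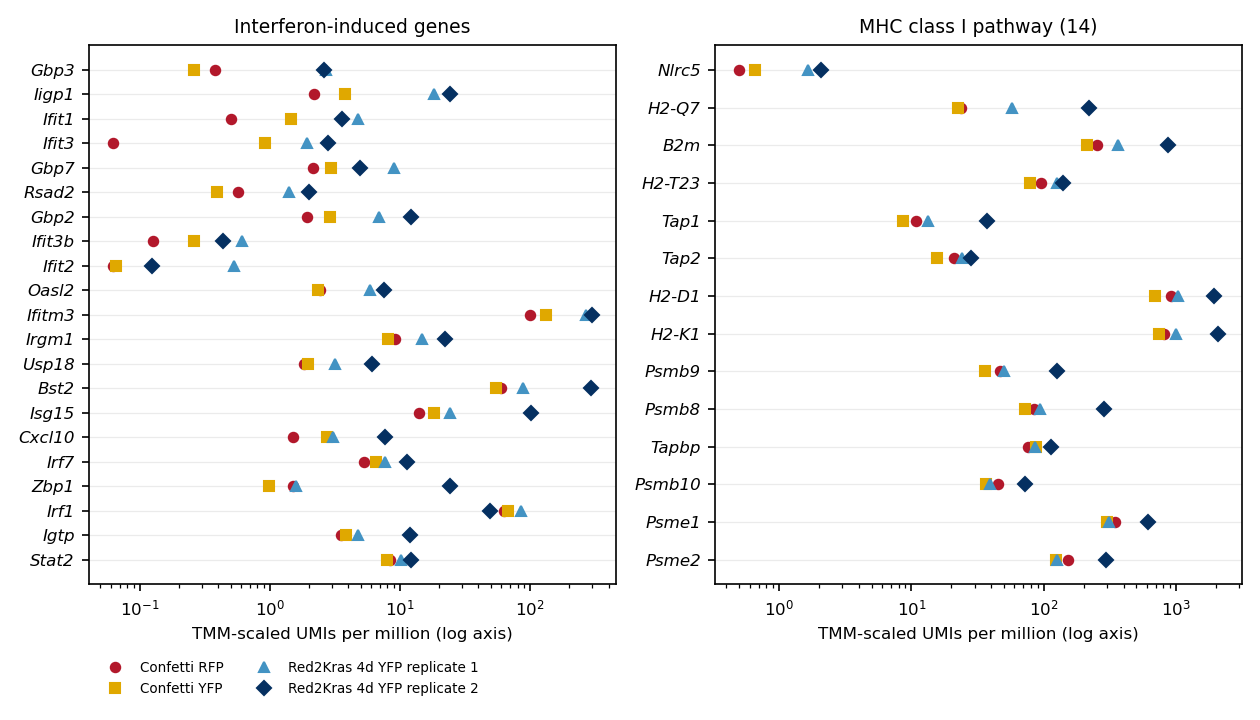
Levels of interferon-induced genes (left) and of the 14 genes of the MHC class I pathway (right) in TMM-scaled CPM on log axes, 1 point per library, ordered by the log2 difference of replicate 1. Both 4d YFP libraries lie to the right of both Confetti libraries in all interferon-induced genes drawn but Irf1 and Ifit2, and in 10 of the 14 MHC class I genes.

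The share of cells with a UMI moved the same way when every cell was thinned to 2000 UMIs. H2-Q7 was seen in 3.15% of Confetti RFP cells (123 of 3906, exact 95% interval 2.62 to 3.75), 3.58% of Confetti YFP cells, 8.42% in replicate 1 (7.18 to 9.79) and 23.4% in replicate 2 (21.9 to 25.0). Without thinning the shares were 6.64%, 5.99%, 18.7% and 45.3%. Bst2 was seen in 9.65%, 9.26%, 12.3% and 31.0% of thinned cells in the same order, and Ifitm3 in 5.58%, 7.56%, 8.91% and 20.3%. Ctss, a leukocyte gene, was seen in 70.1% to 86.1% of the Ptprc-positive barcodes and in at most 1.00% of kept cells. It gives no limit for free RNA of genes abundant in AT2 cells. Sftpc was seen in 89.4%, 100%, 78.2% and 43.6% of thinned Ptprc-positive barcodes in the same order. The part of free RNA and of doublets in this was not tested. Among those Ptprc-positive barcodes, which the filters remove, Ifitm3 was seen in 15.2%, 12.5%, 46.0% and 38.6%, and their part in the kept cells was not tested. The intervals cover counting error only.

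**Figure D3:**
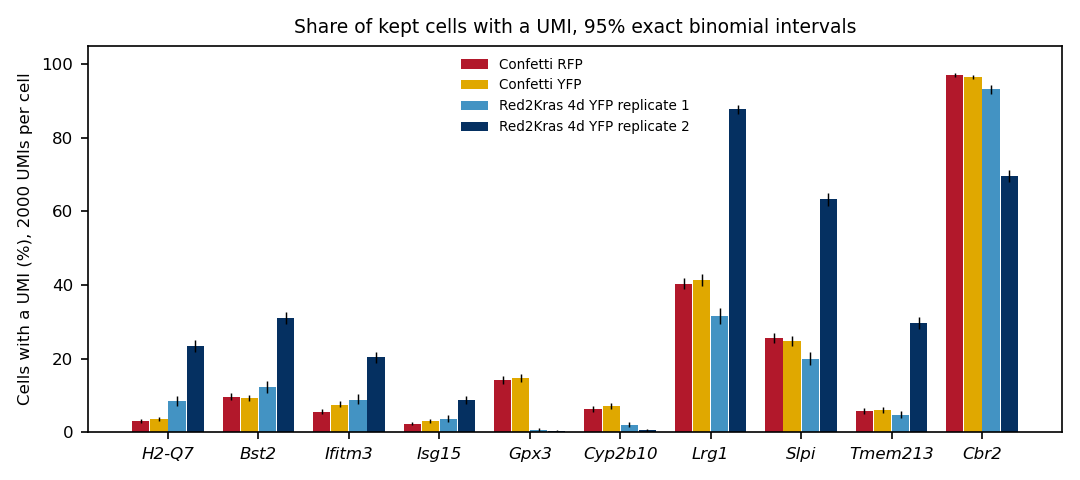
Share of kept cells with at least 1 UMI of each gene after thinning every cell to 2000 UMIs, in percent, with exact 95% binomial intervals that cover counting error only. H2-Q7 and Gpx3 separate both 4d YFP libraries from both Confetti libraries in opposite directions, and Lrg1, Slpi, Tmem213 and Cbr2 separate replicate 2 from the other 3 libraries.

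Replicate 1 pooled cells of both sexes, so its female and male cells come from different mice and were set beside each other. Ifitm3 was at 225 in the 1236 female cells and at 493 in the 241 male cells, and H2-Q7 at 48.9 and 94.5. The median log2 difference from Confetti was 0.92 and 1.90 for the interferon list, which in so few male cells depends partly on the floor of 3 UMIs, and 0.41 and 0.40 for the MHC class I list. Markers of other cell types differed between the same cells: the medians in female and male cells were 1.29 and 2.49 for the endothelial list, 1.11 and 2.81 for the mesenchymal list, -0.64 and 1.42 for the ciliated list and -2.43 and 0.87 for the airway secretory list. Scgb1a1, the main secretoglobin of airway club cells, was at 3908 in female and 30440 in male cells. The part of these cell types in the values by sex was not tested. B2m was at 343 and 488, above both Confetti libraries in the cells of each sex.

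A total of 6 genes were at least 2-fold lower in both 4d YFP libraries than in both Confetti libraries (6 of 5399, 0.111%), and all 6 were at least 3-fold lower. Gpx3, a secreted glutathione peroxidase, was at 94.8 and 94.0 in Confetti RFP and YFP, 10.9 in replicate 1 and 2.44 in replicate 2. In the stricter set of barcodes it was at 95.4, 93.5, 0.204 and 2.34. It was seen in 14.1% and 14.7% of thinned Confetti cells against 0.715% and 0.469%, and its fitted log2 difference was -3.84 ± 0.82 (SE, adjusted p = 1 in edgeR and 0.000632 in DESeq2). D930048N14Rik, annotated as protein coding, was at 26.8 and 33.9 against 1.05 and 1.12, which was the largest gap (at least 23.8-fold in every pair) and the smallest p of all genes tested (2.73e-05, adjusted p = 0.391). Pdlim4, an actin-associated PDZ and LIM domain protein, was at 21.1 and 19.8 against 1.67 and 0.812. Pak6, a p21-activated kinase, was at 17.0 and 22.3 against 1.93 and 4.25. Cyp2b10, a xenobiotic-metabolising cytochrome P450 with close paralogs, was at 37.0 and 39.4 against 11.8 and 3.25. In each of these genes the Confetti libraries lay close together and both replicates far below. Scgb3a1, a secretoglobin of airway cells, was at 99.4 and 43.9 against 0.439 and 3.56, but it was seen in only 0.256% and 0.268% of thinned Confetti cells. In the stricter set of barcodes Scgb3a1 was at 0.651 and 5.12 in Confetti and at 0.102 and 2.34 in 4d YFP, so its groups overlapped, while the other 5 genes stayed at least 2-fold apart in every pair. Scgb3a1 is itself among the 7 airway secretory genes given above, whose sums overlapped between the groups. The part of airway cells in its difference was not tested.

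Of the 6 genes, 4 lie in 1 stretch of chromosome 11. From Scgb3a1 (chr11:49663610-49665118) over D930048N14Rik (chr11:51650954-51657681) and Pdlim4 (chr11:54054928-54069014) to Gpx3 (chr11:54902453-54910377) the stretch spans 5.25 Mb and holds 31 of the 5399 genes at 20 CPM or more (0.574%). The other 27 genes there had a median log2 difference of -0.0070 in replicate 1 and -0.11 in replicate 2, and none of them was 2-fold below the Confetti mean in either replicate. The stretch was chosen after the values were seen. Pak6 (chr2:118663303-118698020) and Cyp2b10 (chr7:25897620-25926624) lie elsewhere.

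The lower genes were not particular to the 4-day YFP cells. All 6 were also below both Confetti libraries in 6 of the 6 other Red2Kras libraries, mutant RFP cells and 2-week cells included: Gpx3 ranged there from 0.648 to 6.29 and D930048N14Rik from 1.02 to 3.00. Of the higher genes, H2-Q7 and Gm8797 were above both Confetti libraries in 6 of 6, H2-Q6 in 5 of 6, and Ifitm3 and Iigp1 in 4 of 6. Since all Red2Kras libraries share the mouse line and all are set against the same Confetti libraries, the line and the presence of mutant cells cannot be told apart for these genes. Between 4d YFP and 2w YFP, where the line is the same, edgeR called 0 of 14342 genes (0%), with 183 at an unadjusted p under 0.05, and DESeq2 called 5.

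The replicates parted from each other in several programmes. Taken alone, replicate 2 was at least 2-fold above both Confetti libraries in 135 genes (2.5%) and below both in 61 (1.13%) while replicate 1 was within 1.5-fold of the Confetti mean, out of 5399 genes at 20 CPM or more. The reverse pattern, with replicate 1 apart and replicate 2 near Confetti, was found in 4 genes above (0.0741%) and 2 below (0.037%). A difference described for replicate 2 or for replicate 1 in the following rests on that library. Replicate 2 was male and the Confetti libraries were female, so sex cannot be told apart from any other difference of replicate 2.

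**Figure D4:**
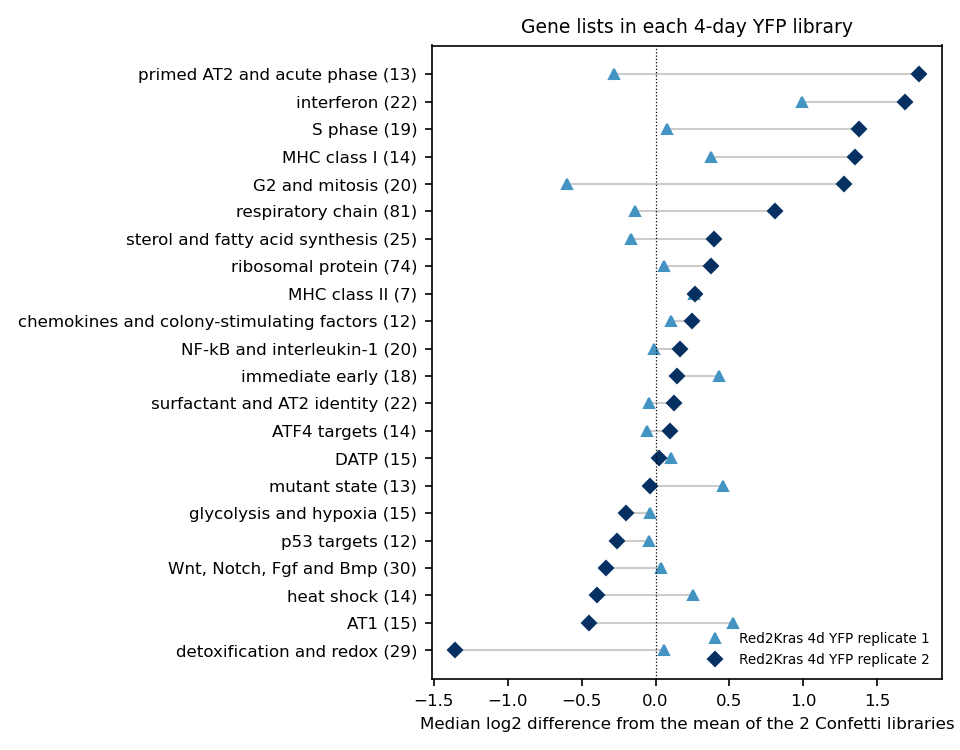
Median log2 difference of each gene list from the mean of both Confetti libraries in replicate 1 (triangles) and replicate 2 (diamonds), with the number of tested genes in brackets and the dotted line at no difference. The interferon and MHC class I lists are above 0 in both libraries, while the primed AT2, cell cycle and detoxification lists are apart from 0 in replicate 2 and near or on the other side of it in replicate 1.

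Primed AT2 and acute-phase genes were higher in replicate 2 but not in replicate 1. Of 13 genes, 8 were at least 2-fold above both Confetti libraries in replicate 2 (5.01% of all genes tested) and none in replicate 1 (3.88%), with median log2 differences of 1.78 and -0.28. Lcn2, a siderophore-binding protein of the acute phase, was at 2243 and 1867 in Confetti, 1942 in replicate 1 and 7389 in replicate 2. Lrg1, a secreted leucine-rich glycoprotein, was at 675, 597, 517 and 2528, and was seen in 40.4%, 41.4%, 31.5% and 87.7% of thinned cells. Retnla, a small secreted protein of type 2 immunity, was at 116, 130, 76.3 and 1536. Slpi, a protease inhibitor of mucosal fluid, was at 213, 174, 145 and 976, and Il33, an alarmin, at 361, 335, 287 and 871. Replicate 1 was the lowest of the 4 libraries in Lrg1, Retnla, Slpi and Il33. Of the genes of replicate 2 alone, Orm1, an acute-phase glycoprotein, was at 57.7 against 5.27, 5.17 and 3.69, and Phgr1 at 158 against 21.0, 19.7 and 18.6. Tmem213, a transmembrane protein, was at 246 against 36.7, 33.6 and 27.2. Macrophage markers were higher in replicate 2 as well (median log2 difference 1.44), and Cd52, a leukocyte surface gene, was at 40.5 against 3.51, 4.91 and 5.62, while Lcn2 was seen in 97.8% of its kept cells after thinning and in 10.9% of its Ptprc-positive barcodes. In the stricter set of barcodes Lcn2 was at 2293, 1992, 2192 and 7387.

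Cell cycle genes were higher in replicate 2, and those of G2 and mitosis were lower in replicate 1. Of 20 genes of G2 and mitosis, 14 were at least 2-fold above both Confetti libraries in replicate 2 (5.01% of all genes tested), none was in replicate 1 (3.88%), and 19 of 20 were below both Confetti libraries there (34.5% of all genes tested were). The median log2 differences were -0.60 in replicate 1 and 1.27 in replicate 2. Ube2c, which feeds substrates to the anaphase-promoting complex, was at 51.6 and 45.4 in Confetti, 29.7 in replicate 1 and 162 in replicate 2, and Birc5 (survivin) was at 29.1, 25.1, 17.6 and 94.5. Mki67, which marks cycling cells, was at 16.2, 19.6, 10.3 and 32.9. Of 19 S phase genes, 12 were at least 2-fold above in replicate 2 (5.01% of all genes tested), with medians of 0.078 and 1.37, and Tyms, which makes thymidylate, was at 24.4, 19.1, 20.9 and 64.4. Top2a was seen in 1.69%, 1.85%, 1.32% and 3.88% of thinned cells. Macrophage markers were higher in replicate 2 as well (median log2 difference 1.44). Mki67 and Top2a were each seen in 9.90% of its thinned Ptprc-positive barcodes, which the filters remove, against 3.11% and 3.88% of its thinned kept cells. The part of leukocytes in the cell cycle values was not tested. The cell cycle differences depended on which cells were compared. Among barcodes with at least 1500 genes, 0 of the 20 G2 and mitosis genes were 2-fold above in replicate 2. Of the S phase genes fewer than 12 were, and their median in replicate 1 was then negative (values in the section on processing). Barcodes with at least 1500 genes make up 1394 of 3914 and 830 of 4121 Confetti cells but 2501 of 2989 cells of replicate 2.

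Detoxification and redox genes were lower in replicate 2. Of 29 genes, 15 were at least 2-fold below both Confetti libraries in replicate 2 (7.86% of all genes tested) and 2, Gpx3 and Cyp2b10, in replicate 1 (1.29%), with median log2 differences of -1.36 and 0.059. In replicate 2, 22 of 29 were below both Confetti libraries (47.8% of all genes tested), 9 were below both in both replicates (18.1%), 2 of them at least 2-fold (0.411%), and 3 had an unadjusted p under 0.05 in edgeR with 4d YFP lower (0.328%).
Cbr2, a carbonyl reductase of the lung, was at 3571 and 3349 in Confetti, 3014 in replicate 1 and 1002 in replicate 2, and was seen in 96.9%, 96.6%, 93.2% and 69.6% of thinned cells. Aox3, an aldehyde oxidase, was at 164, 135, 172 and 38.1, Ces1d, a carboxylesterase, at 357, 294, 277 and 121, and Fmo2, a flavin monooxygenase of the lung, at 21.1, 21.1, 24.2 and 2.19. Gstm1, a glutathione transferase with close paralogs, was at 84.1, 88.5, 103 and 16.4. Gsta4 and Gstt1 did not follow, at 170, 143, 166 and 185 and at 202, 169, 156 and 219. Markers of endothelial (median -3.44), mesenchymal (-3.69), ciliated (-1.04), airway secretory (-1.37), mesothelial (-2.96) and erythroid cells (-6.61) were lower in replicate 2 as well. Their part in the detoxification values was not tested. In the stricter set of barcodes Cbr2 was at 3589, 3458, 3276 and 983, and Gstm1 at 65.7, 67.5, 65.8 and 11.3. That set was not filtered on airway secretory genes. Cat, which every cell type carries, was at 285, 323, 261 and 168.

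**Figure D5:**
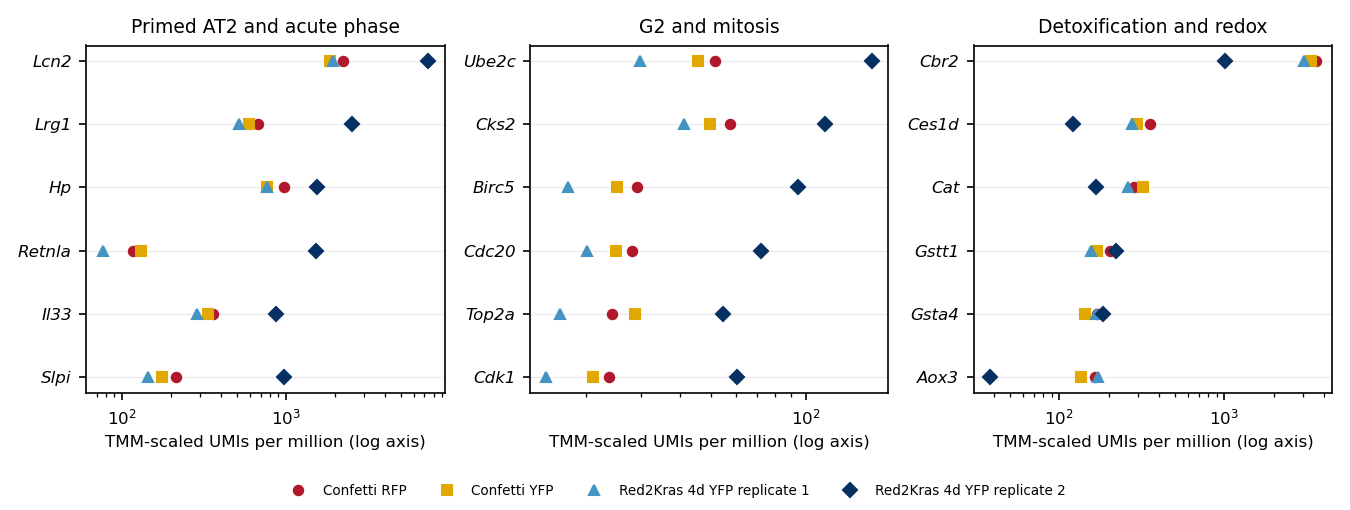
Levels of the 6 most abundant members of 3 gene lists in TMM-scaled CPM on log axes, 1 point per library. In the primed AT2 and mitotic genes replicate 2 is the highest library, and in Cbr2, Ces1d, Cat and Aox3 it is the lowest, while replicate 1 lies near Confetti or on the other side.

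Genes of the respiratory chain were moderately higher in replicate 2, with a median log2 difference of 0.80 over 81 genes against -0.14 in replicate 1, and 76 of the 81 were above both Confetti libraries (37.2% of all genes tested). In replicate 1, 44 of the 81 were below both (34.5%). Mitochondrial UMIs, which were left out of the sums, made up 4.28% in Confetti RFP, 3.74% in Confetti YFP, 3.75% in replicate 1 and 2.11% in replicate 2, and their part in this difference was not tested. Cox6c was at 1292 and 1256 in Confetti, 1241 in replicate 1 and 2818 in replicate 2. Ribosomal protein genes had medians of 0.057 and 0.38. Of the sterol and fatty acid genes, Scd1, the desaturase that makes monounsaturated fatty acids, was higher in both replicates, at 3341 and 3153 in Confetti against 5122 and 9947, with a fitted log2 difference of 1.22 ± 0.39 (SE, adjusted p = 1). In replicate 1 it was at 5844 in female cells and at 3436 in male cells, which is near Confetti. In replicate 1 the list as a whole did not follow Scd1, with a median of -0.17. There 17 of 25 genes were below both Confetti libraries (34.5% of all genes tested) and 5 above. In replicate 2 the median was 0.39, with 19 of 25 genes above both (37.2% of all genes tested) and 3 below. Fasn was at 637, 642, 538 and 933.

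Surfactant and AT2 genes were close to Confetti in the sums of both replicates. Over the 22 tested surfactant and AT2 genes the medians were -0.047 in replicate 1 and 0.12 in replicate 2, and no member was 2-fold above Confetti in either. In replicate 2, 11 of the 22 were above both Confetti libraries (37.2% of all genes tested) and 8 below both (47.8%), and Cd36, a fatty acid transporter named after its values were seen, was more than 2-fold below at 513 against 1340 and 1523, with 1138 in replicate 1. The cells of replicate 1 differed by sex: the median was 0.028 in its female cells and -0.37 in its male cells, in which 19 of 22 genes were below both Confetti libraries (4984 of all 14342 genes tested were). Among barcodes with at least 1500 genes the medians were 0.21 in replicate 1 and 0.42 in replicate 2. Sftpc was at 123184 and 99004 in Confetti and at 141414 and 168709 in 4d YFP. Sftpb was at 7844, 7428, 7662 and 7504, so the groups overlapped. Lyz2 was at 52445, 37179, 39436 and 31746.

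Over 15 genes of the Krt8-high state the medians were 0.11 and 0.022: Krt8 was at 316 and 282 in Confetti against 297 and 304, Krt18 at 358 and 318 against 390 and 343, and Cdkn1a at 203 and 205 against 184 and 103. The 15 AT1 genes had medians of 0.53 in replicate 1, where 11 were above both Confetti libraries (37% of all genes tested), and -0.45 in replicate 2, where 8 were below both, a share near the 47.8% of all genes tested. Endothelial and mesenchymal markers were also higher in replicate 1 (medians 1.43 and 1.67) and lower in replicate 2 (-3.44 and -3.69). In replicate 1 the AT1 median was 0.35 in female and 1.16 in male cells. The part of other cell types in the AT1 values was not tested. Ager, the receptor that marks AT1 cells, was at 875 and 703 against 930 and 938, and Aqp5, a water channel, at 454 and 379 against 499 and 436. Dlk1 gave 0 UMIs in both Confetti libraries and in replicate 1, which allows up to 3 UMIs in each, and 1 UMI in replicate 2. Of 13 genes of the mutant state, Itga2 and Ctse were at least 2-fold above both Confetti libraries in both replicates (0.377% of all genes tested), and both rest on few UMIs. Ctse had 0 UMIs in both Confetti libraries and 5 and 9 in replicates 1 and 2. Itga2, an integrin subunit, was at 0.376 and 0.524 against 2.02 and 2.25, which is 6, 8, 23 and 36 UMIs and compares with 5.52 and 159 in the mutant RFP libraries of the same time point. The 36 UMIs of Itga2 in replicate 2 were in 5 of 2989 cells (0.167%). Without thinning the share was 0.153% and 0.170% in Confetti and 0.931% in replicate 1, so replicate 2 was within the Confetti range. After thinning Itga2 was seen in 0.134% of replicate 2 cells (4 cells), 0.0512% and 0.0488% in Confetti and 0.550% in replicate 1. Replicate 2 was then above Confetti, on few cells.
Spp1, a secreted matrix protein, was at 30.8 in replicate 1 against 7.78, 11.7 and 11.8 in the other libraries, and it was seen in 0.880% of thinned cells there and in 11.5% of its Ptprc-positive barcodes.

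The NF-kB and interleukin-1 genes lay on both sides of Confetti. Over 20 genes the medians were -0.0094 and 0.17. Nfkbia, the inhibitor that NF-kB itself induces, was at 255 and 242 in Confetti, 294 in replicate 1 and 150 in replicate 2, and Il1r1, the interleukin-1 receptor, at 21.0 and 18.4 against 18.7 and 9.06. Immediate-early genes, which dissociation of tissue also raises, had medians of 0.43 and 0.15, and 10 of 18 were above both Confetti libraries in both replicates (13.8% of all genes tested): Jund was at 761 and 721 against 1074 and 1288, and Fos at 399 and 474 against 724 and 611. Heat-shock genes had medians of 0.25 and -0.40.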

How the data were processed

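Epithelial cells of the mouse distal lung were profiled by droplet 3′ RNA sequencing. The authors made the deposited matrices of raw UMI counts with Cell Ranger against GRCm38 (version 3.1.0 in the submitters' processing notes, 5.0.1 in the matrix headers). The deposited counts are not normalized; the barcode limits used here, other than that on Ptprc, are those of the study's later quality control. UMI counts of the kept barcodes were summed per library over 29100 autosomal genes (positions from GENCODE M21), between 10741724 and 18090484 counts in the 4 libraries. Doublets were not removed. In R 4.3.3, edgeR 4.0.16 tested counts by quasi-likelihood (TMM, filterByExpr), with 6 groups over all 10 libraries, as 4d YFP minus the mean of Confetti RFP and YFP, with Benjamini-Hochberg adjustment over 14342 genes and a threshold of 0.05. The fit was tested on counts simulated with a smaller dispersion than that of these libraries (0.175). That test therefore does not show how many real differences would pass here. Levels are TMM-scaled CPM, and marker sums unscaled CPM, and log2 differences by library use a floor of 3 UMIs. "In every pair" compares each 4d YFP library with each Confetti library. Named genes were those at least 2-fold apart in every pair at 20 CPM or more (10 per direction), up to 6 per direction for 1 replicate alone, the 3 or 6 most abundant members of each of 22 lists and 9 marker lists, genes central to the study, and genes added after their values were seen. The alternatives were DESeq2 1.42.0, other scalings, count and cell filters, thinning to 2000 UMIs, sex and leaving out libraries. The members and lists were chosen with earlier results of these data known. A single member of the interferon list enters its counts and medians but is not reported here by name.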

Additional observations from a re-analysis of the deposited data

How the results depend on the processing

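Between 4d YFP and Confetti the count of genes past the threshold was 4 with DESeq2 and 6 without a filter on low counts, and between 4d YFP and 2w YFP it was 5 and 24. It was 0 in both comparisons under every other alternative, each library left out included. The replicate numbers 1 and 2 recur among the Red2Kras groups but not in Confetti, and no label says what they share. With a replicate block 0 genes passed and 389 had an unadjusted p under 0.05 (edgeR, smallest adjusted p 0.0590).

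The 5 genes higher in every pair became 20 with all barcodes past the quality filters, 2 with at least 1500 genes per barcode (H2-Q6, H2-Q7 and Ifitm3 lost), 16 with only the male cells of replicate 1, 2 at 3-fold, 15 at 5 CPM, and 6 to 174 with 1 library left out (174 without replicate 1, 68 without replicate 2). The 6 lower genes became 11 without scaling factors, 19 at 5 CPM, 2 at 50 CPM, and 9 to 95 with 1 library left out (95 without replicate 1, 12 without replicate 2, 11 without Confetti RFP). The 6 genes of replicate 1 alone became 10 with all barcodes past the quality filters, 12 after thinning, 29 with at least 1500 genes, 57 with male cells, 2 at 3-fold, 28 at 5 CPM, 1 at 50 CPM, and 11 to 17 with a Confetti library left out. The 196 of replicate 2 alone became 57 at 3-fold, 415 at 5 CPM, 119 at 50 CPM, and 247 to 373 with a Confetti library left out (373 without Confetti RFP). Of the S phase genes 5 rather than 12 were 2-fold higher in replicate 2 with at least 1500 genes per barcode, and of the G2 and mitosis genes 0 rather than 14 there and 9 without scaling factors. The causes were not tested.

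Of 305 fitted log2 differences of 18 genes under alternatives, 0 reversed. Of 176 list medians under alternatives, 7 moved, all in the interferon and surfactant lists. In the interferon list 2 moved in replicate 1 and 1 in replicate 2. The sign changed in 11 medians, in the detoxification, S phase and respiratory chain lists of replicate 1 and the surfactant list of both replicates. The S phase median of replicate 1 was -0.455 with at least 1500 genes per barcode, and the surfactant median of replicate 2 was -0.17 without scaling factors. Leaving out the scaling factors moved the median of all genes in replicate 2 from -0.037 to -0.33. With 2 libraries on each side and 1 per Confetti colour, the spread came from the Red2Kras pairs. The methods list the Confetti colours as a single sample. Genes under 20 CPM rest on few UMIs.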
